A study of Homo sapiens with 6 samples.

Results

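The genes examined here were the lysosome genes of HEY cells, a human ovarian cancer cell line, measured by short-read RNA-seq. They were the rows of the gene table that the KEGG annotation of that table places in the Lysosome pathway, with solute carrier genes (SLC) left out, which gave 119 of the 32679 genes. The pathway annotation holds 122 genes when the solute carriers are kept. The control group, shNC, had 3 samples that carried the control hairpin and received no treatment. The knockdown group, shPQBP1, had 3 samples that carried a hairpin against PQBP1 and received doxycycline at 1 µg per ml. All samples are labelled day 3, while the study's text describes a shorter doxycycline treatment of PQBP1-depleted HEY cells, so the length of treatment is uncertain. By these labels the hairpin and doxycycline differ together, so that their effects cannot be told apart. The cells were stable lentiviral lines selected with puromycin, 1 hairpin sequence against PQBP1 is named for the study, and poly(A) RNA was sequenced. The labels describe the samples as biological replicates but do not name separate cultures, so p-values measure the spread between these samples.

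The lysosome is the acidic, membrane-bound compartment in which cells break down proteins, glycans, lipids and nucleic acids that arrive by endocytosis or autophagy. A proton pump, the V-ATPase, acidifies it, soluble hydrolases digest its contents, and membrane proteins of the LAMP and LAPTM families line or regulate it. Most hydrolases receive a mannose 6-phosphate tag in the Golgi, and receptors, adaptor complexes and clathrin carry them to endosomes. Many of these genes share a promoter E-box, read by the MiT transcription factors TFEB, TFE3 and MITF.

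PQBP1 was lower in every shPQBP1 sample than in every shNC sample. PQBP1 (ENSG00000102103) stood at 7.18, 6.67 and 6.93 FPKM under shNC and at 1.68, 1.72 and 1.44 FPKM under shPQBP1. FPKM is the number of sequenced fragments scaled to transcript length and to library size, and all levels below are FPKM. The FPKM of all genes summed to 294970 to 318484 in the shNC and 278286 to 287423 in the shPQBP1 samples, with no overlap. The 10 highest genes held 25.5% to 26.7% of the sum in the shNC and 22.4% to 23.8% in the shPQBP1 samples. The lysosome genes held 0.562% to 0.597% and 0.664% to 0.704%. Summed levels given below were not rescaled for these differences. The read depth is unknown, since FPKM carries no counts. The sample shNC replicate 1 stood apart most, with Pearson correlations across genes of 0.926 to 0.955 with the other samples, and it was the highest sample in 33 of the 97 tested lysosome genes (9 to 20 for each other sample). Keratins of simple epithelia were abundant, with KRT7, KRT8 and KRT18 between 52.76 and 94.56 in every sample. PAX8, a marker of Müllerian epithelium, had 12.33 to 15.70 in the shNC and 18.41 to 24.08 in the shPQBP1 samples, with no overlap. KRT19 was higher (1.19 to 1.65 and 1.70 to 2.10) and WT1 lower (0.63 to 0.71 and 0.31 to 0.45), also with no overlap. CDH1 and MUC16 were at or near 0 (at most 0.06). Of the 10 epithelial and ovarian markers, 6 were tested and 1, MSLN, had an adjusted p under 0.05, with values of 11.96 to 14.43 in the shNC and 22.81 to 25.56 in the shPQBP1 samples, and the part of these markers in the results was not tested.

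Of the 119 lysosome genes, 97 had a mean of at least 1 FPKM over the 6 samples and were tested. Changes are given as log2 fold changes (log2FC) of FPKM + 0.1, shPQBP1 over shNC, a scale that understates the change of low genes. SE is the standard error. The test was limma over all 11413 genes that passed the same filter, with Benjamini-Hochberg adjustment over all of them. LAPTM5 and LAPTM4B fell and TPP1 rose at an adjusted p under 0.05, which makes 3 of 97 genes (3.09%). The background was 2.91% of all genes tested, so the share of called genes among the lysosome genes lay near that of the transcriptome. By direction, 1 of 97 rose (background 1.73%) and 2 fell (background 1.18%). At an unadjusted p under 0.05 there were 25 lysosome genes (25.8%), 14 of them higher and 11 lower in the shPQBP1 samples, against a background of 23.6% of all genes. LAPTM5 and TPP1 were the 2 genes that differed by more than 2 times at such a p (2.06%, background 1.52%). In 41 of the 97 genes (42.3%) the groups did not overlap, 22 higher and 19 lower, against a background of 34.4% (17.3% higher and 17.1% lower). The unadjusted p background was 11.9% for higher and 11.7% for lower genes. The median log2FC of the 97 genes was 0.04, beside 0.02 over all genes tested.

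**Figure D1:**
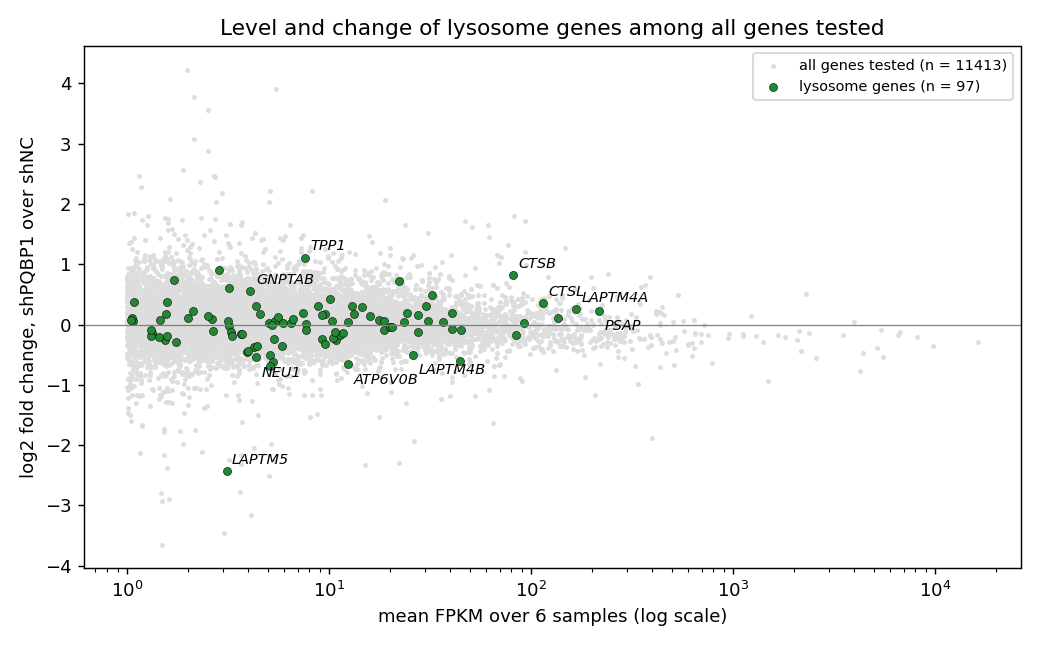
Mean FPKM over the 6 samples (horizontal axis, log scale) against the log2FC of shPQBP1 over shNC (vertical axis) for all 11413 genes tested (grey) and the 97 tested lysosome genes (green). LAPTM5, at -2.43, lies far below the other lysosome genes, whose values run from -0.69 to 1.11.

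The promoters of 4 genes are shown as examples. LAPTM5 had the largest change and TPP1 the largest rise. ATP6V0B and NEU1 had the smallest p-values among the V-ATPase genes and the glycosidases, but neither had an adjusted p under 0.05. The promoter of LAPTM4B, which was called, is not shown. Each sequence is the 250 bases before the RefSeq gene start in GRCh38.p14, written 5′ to 3′ on the strand of the gene. Capitals mark matches to the MiT-type E-boxes TCACGTG and TCATGTG, searched on both strands, which share no letters with each other's matches here. The windows are chr1:30757775-30758024 (minus strand) for LAPTM5, chr11:6619423-6619672 (minus strand) for TPP1, chr1:43974710-43974959 (plus strand) for ATP6V0B and chr6:31862822-31863071 (minus strand) for NEU1.
LAPTM5: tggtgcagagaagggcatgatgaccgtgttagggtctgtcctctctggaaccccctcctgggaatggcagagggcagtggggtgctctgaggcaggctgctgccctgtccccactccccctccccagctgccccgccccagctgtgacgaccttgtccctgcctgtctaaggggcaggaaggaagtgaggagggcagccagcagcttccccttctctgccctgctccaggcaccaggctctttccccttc
TPP1: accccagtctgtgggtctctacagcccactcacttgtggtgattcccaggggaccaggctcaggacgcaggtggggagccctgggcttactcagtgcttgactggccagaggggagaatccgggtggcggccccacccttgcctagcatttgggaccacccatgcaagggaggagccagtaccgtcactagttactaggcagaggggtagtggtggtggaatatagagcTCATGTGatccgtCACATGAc
ATP6V0B: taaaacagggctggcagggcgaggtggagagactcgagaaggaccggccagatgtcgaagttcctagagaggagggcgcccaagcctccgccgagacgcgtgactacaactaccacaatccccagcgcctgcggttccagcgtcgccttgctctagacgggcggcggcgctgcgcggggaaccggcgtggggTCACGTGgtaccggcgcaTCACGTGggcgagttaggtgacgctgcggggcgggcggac
NEU1: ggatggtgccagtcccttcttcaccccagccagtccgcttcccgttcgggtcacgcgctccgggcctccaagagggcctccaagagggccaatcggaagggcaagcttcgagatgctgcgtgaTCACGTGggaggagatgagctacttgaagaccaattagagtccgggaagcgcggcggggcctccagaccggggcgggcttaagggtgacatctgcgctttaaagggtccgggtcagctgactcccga
The ATP6V0B window held TCACGTG at 2 places, starting at -58 and -40 from the gene start, and the NEU1 window held it once, at -127. The TPP1 window held TCATGTG at -21 and its reverse complement CACATGA at -8. Neither motif was in the LAPTM5 window. In the GENCODE annotation TPP1 spans chr11:6612768-6619448 and ATP6V0B spans chr1:43974487-43978295. Both marked TPP1 sites and the whole ATP6V0B window thus lie inside the annotated genes. Which start the cells use was not tested.

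Over the 89 lysosome genes with a RefSeq promoter entry, TCACGTG or its reverse complement was in the 250 bases before a start of 21 genes (23.6%), beside 4.02% of all 27305 genes with an entry. TCATGTG was in 7 (7.87%) beside 3.11%. Of the 19 tested genes with TCACGTG, none had an adjusted p under 0.05 (background 2.91%). At an unadjusted p under 0.05 there were 2 higher and 3 lower (backgrounds 11.9% and 11.7%), and the median log2FC was 0.05. Of the 52 tested genes with an entry and without TCACGTG, 2 had an adjusted p under 0.05. At an unadjusted p under 0.05 there were 8 higher and 6 lower (same backgrounds), and the median was -0.0038. These 52 include genes with the other E-box, TCATGTG, among them TPP1, which was 1 of the 2 called. The comparison is thus of genes with and without TCACGTG, not with and without any MiT-type E-box. The genes with TCACGTG lay on both sides of 0, as did those without it. Among the factors themselves, TFE3 was the most abundant, with 13.80 to 17.16 in the shNC and 13.86 to 15.06 in the shPQBP1 samples and a log2FC of -0.06 (95% interval -0.31 to 0.19). TFEB (0.24 to 0.32 and 0.15 to 0.30) and MITF (0.64 to 0.97 and 0.91 to 1.04) were below the filter, and their groups overlapped.

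LAPTM5 encodes a lysosomal membrane protein with several membrane spans, best known from blood cells, where it promotes the degradation of antigen receptors. The gene (ENSG00000162511) spans chr1:30732469-30757774 on the minus strand of hg38. Its values were 5.76, 5.06 and 5.15 in the shNC samples and 0.78, 1.16 and 0.81 in the shPQBP1 samples. All shPQBP1 samples were below all shNC samples, and the lowest shNC value was over 4 times the highest shPQBP1 value. The mean fell from 5.32 ± 0.381 to 0.917 ± 0.211 FPKM (mean ± SD, n = 3 per group), with a log2FC of -2.43 (SE 0.17, 95% interval -2.84 to -2.03, limma adjusted p = 0.00407). By two-sided exact permutation p was 0.1, which is the lowest value that this number of samples can reach. In the 6 fits that lacked 1 sample the log2FC stayed between -2.60 and -2.34 and the limma-adjusted p between 0.00928 and 0.0357. With a pseudocount of 1 in place of 0.1 the value was -1.73.

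Since LAPTM5 is a gene of blood cells, markers of leukocytes were read beside it. Of the 15 markers listed, 10 had a row in the table, and 9 of these were below 1 FPKM in every sample. The defining marker PTPRC (CD45) was at 0 in all 6 samples, and CD53, CD74, CSF1R, CD14 and LYZ were at most 0.15. FCER1G and CORO1A were at most 0.23. ITGAM, an integrin of myeloid cells, had 0.49, 0.49 and 0.73 in the shNC and 0.29, 0.24 and 0.28 in the shPQBP1 samples, lower with no overlap, as LAPTM5 was. LCP1, which many carcinoma lines also express, had 4.08 to 4.75 in the shNC and 5.16 to 5.88 in the shPQBP1 samples (limma adjusted p = 0.148). The summed level of the 10 markers was 5.14 to 5.70 in the shNC and 5.82 to 6.36 in the shPQBP1 samples, most of it from LCP1. Without LCP1 the other 9 summed to 0.89, 1.06 and 0.95 in the shNC and 0.43, 0.66 and 0.48 in the shPQBP1 samples, lower with no overlap. ITGAM was the largest term of this sum in every sample, and of the 9 it alone had groups that did not overlap. CD14 had 0 to 0.09 in the shNC and 0.02 to 0.15 in the shPQBP1 samples. The part of such cells in the LAPTM5 result was not tested. In bulk RNA, fewer cells that express a gene and less RNA per cell cannot be told apart.

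The other members of the family, LAPTM4A and LAPTM4B, encode lysosomal and endosomal membrane proteins, and LAPTM4B is known to be amplified or overexpressed in several carcinomas. LAPTM4B had 31.96, 30.35 and 29.66 in the shNC samples and 20.22, 21.85 and 23.00 in the shPQBP1 samples, with no overlap. It fell from 30.7 ± 1.18 to 21.7 ± 1.40 FPKM (mean ± SD, n = 3 per group), with a log2FC of -0.50 (SE 0.08, limma adjusted p = 0.0338). This call was lost in 5 of the 6 fits without 1 sample. The adjusted p was 0.0422 without shNC replicate 1 and at most 0.140, without shPQBP1 replicate 1. LAPTM4A, at 164.90, 144.23 and 147.45 in the shNC samples, had 176.81, 175.79 and 191.79 in the shPQBP1 samples. Its groups did not overlap either, in the opposite direction, with a log2FC of 0.25 (SE 0.08) and an adjusted p of 0.133 from limma, so no call was made. It was called under quantile normalization (0.31, adjusted p = 0.0435), while the correction for GC content and length gave 0.14 (adjusted p = 0.443). In both groups LAPTM4A was the most abundant of the family in FPKM, which is per length, followed by LAPTM4B and LAPTM5, and none of these ranges overlapped.

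**Figure D2:**
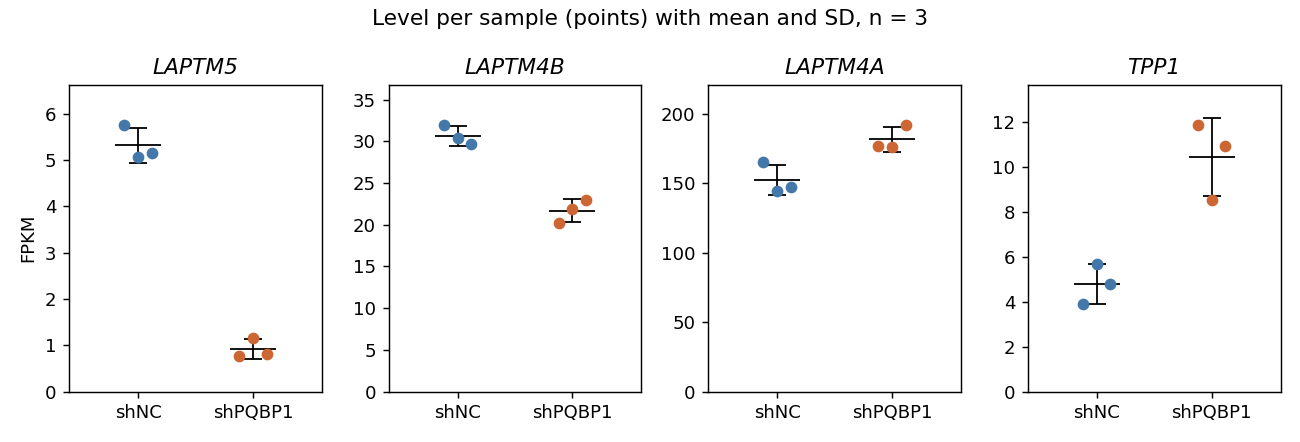
FPKM (vertical axes, each from 0) of LAPTM5, LAPTM4B, LAPTM4A and TPP1 in the 3 shNC samples (blue) and the 3 shPQBP1 samples (orange), with the mean and SD as black bars. LAPTM5 and LAPTM4B are lower in all shPQBP1 samples, while LAPTM4A and TPP1 are higher in all of them.

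TPP1 encodes tripeptidyl peptidase, a lysosomal serine protease whose loss causes a childhood neuronal ceroid lipofuscinosis. The gene (ENSG00000166340) spans chr11:6612768-6619448 on the minus strand of hg38. Its values were 3.89, 5.69 and 4.79 in the shNC samples and 11.86, 8.52 and 10.92 in the shPQBP1 samples. Every shPQBP1 sample was above every shNC sample. TPP1 rose from 4.79 ± 0.900 to 10.4 ± 1.72 FPKM (mean ± SD, n = 3 per group), with a log2FC of 1.11 (SE 0.18, limma adjusted p = 0.0345), or 2.16 times. The direction was the same in all 6 fits without 1 sample (0.97 to 1.25), but none kept an adjusted p under 0.05 (0.0504 to 0.149). A gene on the same strand, AC091564 (ENSG00000285338), shares 756 exon bases with TPP1 and was listed at 0 to 0.47 FPKM.

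The other proteases of the lysosome are mostly cathepsins, and 17 proteases were in the list, 11 of them tested. At an unadjusted p under 0.05, 3 beside TPP1 were higher and 1 was lower (backgrounds 11.9% and 11.7%). The median log2FC of the 11 was 0.09, and it was 0.18 without shNC replicate 1, 0.17 without shPQBP1 replicate 3 and 0.06 without shPQBP1 replicate 2. CTSL, a cysteine cathepsin, was the most abundant, with 110.72, 97.41 and 92.56 in the shNC and 125.79, 133.08 and 126.70 in the shPQBP1 samples. Its groups did not overlap, with a log2FC of 0.36 (SE 0.08, limma adjusted p = 0.0799), and the adjusted p was 0.0253 without shNC replicate 1. CTSZ, a carboxypeptidase, had 86.34 to 97.93 and 90.25 to 95.32, a log2FC of 0.02 with a 95% interval from -0.16 to 0.19, and its exons overlap those of NELFCD on the opposite strand over 6136 bases, while strand was not stated for the counting. The next 4 proteases were chosen after their values were seen. CTSB, another cysteine cathepsin, had 79.54, 70.88 and 33.65 in the shNC samples against 95.63, 105.97 and 103.83 (limma adjusted p = 0.191), so that shNC replicate 3 alone had under 70 FPKM. CTSO had 1.24 to 2.64 against 3.55 to 3.88, a log2FC of 0.91 (adjusted p = 0.122). CTSD, the main aspartic protease, overlapped between the groups, with 23.32 to 35.40 and 29.94 to 32.96. LGMN, the asparaginyl endopeptidase that processes cathepsins, had 9.99 to 11.77 in the shNC and 7.92 to 9.04 in the shPQBP1 samples (log2FC -0.32, adjusted p = 0.137). The summed FPKM of the 17 proteases was 298.96 to 377.59 in the shNC samples and 403.63 to 424.73 in the shPQBP1 samples, with CTSL, CTSZ and CTSB as its largest terms.

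The glycosidases remove sugars from glycoproteins, glycolipids and glycosaminoglycans. Of 17, 13 were tested, none had an adjusted p under 0.05, and at an unadjusted p under 0.05 there were 2 higher and 1 lower (backgrounds 11.9% and 11.7%). NEU1, the lysosomal sialidase, had 5.67, 5.13 and 4.75 in the shNC and 3.79, 3.47 and 3.32 in the shPQBP1 samples. Its log2FC was -0.54 (SE 0.10, limma adjusted p = 0.0536), just outside the threshold. GUSB, the beta-glucuronidase, chosen after its values were seen, had 9.27, 7.30 and 7.29 in the shNC and 9.07, 9.74 and 10.68 in the shPQBP1 samples (log2FC 0.31, SE 0.13, limma adjusted p = 0.209).

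The sulfatases cleave sulfate groups from glycosaminoglycans and sulfolipids. Of 7, 6 were tested and none reached an unadjusted p under 0.05. IDS, the iduronate sulfatase of Hunter syndrome, had 5.43 to 6.47 in the shNC samples and 5.06, 5.89 and 1.66 in the shPQBP1 samples. The lowest of these, in shPQBP1 replicate 3, set its log2FC of -0.69, which was -0.14 without that sample. IDS has a pseudogene copy nearby, and reads shared with it were not tested.

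The lipases, the phosphatases, the nuclease and the thioesterases were grouped as lipid and other hydrolases, 13 in all and 11 tested. None had an adjusted p under 0.05, while at an unadjusted p under 0.05 there were 3 higher and 1 lower (backgrounds 11.9% and 11.7%). The median was 0.13, but it was 0.29 without shPQBP1 replicate 3 and 0.26 without shPQBP1 replicate 1. Without shNC replicate 3 it was 0.24, and without shNC replicate 1 it was 0.20. Only 3 of these genes had a mean of at least 10 FPKM, and their median of 0.43 was the value of DNASE2. PPT1, the palmitoyl-protein thioesterase whose loss causes an infantile ceroid lipofuscinosis, had 22.85, 28.73 and 29.12 in the shNC and 31.74, 39.82 and 41.51 in the shPQBP1 samples (log2FC 0.48, limma adjusted p = 0.128). LIPA, the acid lipase that frees cholesterol from lipoprotein esters, had 10.70 to 12.92 and 14.24 to 14.65 (0.30, adjusted p = 0.131). DNASE2, the acid nuclease, had 9.35, 7.98 and 8.64 against 10.97, 11.70 and 12.32 (0.43, SE 0.09, adjusted p = 0.0677). In all of these the groups did not overlap. LIPA and DNASE2 had an adjusted p of 0.0461 each without shNC replicate 1. With GC content and length corrected for, LIPA was at 0.14 (adjusted p = 0.566) and DNASE2 at 0.58 (adjusted p = 0.0106). LIPA shares 65 exon bases with IFIT2 on the opposite strand, which had 5.03 to 6.95 in the shNC and 13.22 to 14.29 in the shPQBP1 samples. It also shares 94 with IFIT3 on that strand, whose groups overlapped (27.61 to 39.77 and 37.74 to 40.41). ACP2, a lysosomal acid phosphatase chosen after its values were seen, had 4.21 to 5.24 in the shNC and 2.91 to 3.81 in the shPQBP1 samples.

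The activators help hydrolases act, and 4 were in the list. PSAP, the precursor of the saposins that present glycolipids to their hydrolases, was the most abundant lysosome gene of all, with 215.21, 189.93 and 197.79 in the shNC and 230.07, 241.52 and 236.28 in the shPQBP1 samples. Its log2FC was 0.23 (SE 0.07, limma adjusted p = 0.125), and it was 0.28 (adjusted p = 0.0478) without shNC replicate 1. GM2A, the activator of ganglioside breakdown, overlapped, with 8.16 to 9.77 and 9.12 to 10.77. SUMF1, which activates all sulfatases, had 3.52 to 4.18 and 4.62 to 5.03 (log2FC 0.31, adjusted p = 0.134). PSAPL1 was listed at 0 in every sample.

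Over the 44 tested enzymes and activators together, 1 rose at an adjusted p under 0.05 (background 1.73%). At an unadjusted p under 0.05 there were 11 higher and 3 lower (backgrounds 11.9% and 11.7%). The log2FC was above 0 in 32 and below 0 in 12, beside 6026 above and 5387 below among all genes tested. The median of the 44 was 0.12, beside 0.02 over all genes tested. It was 0.07 under quantile normalization and 0.18 with GC content and length corrected for. Over the 13 genes with a mean of at least 10 FPKM it was 0.23. Most of these differences were small, and a value such as that of CTSL corresponds to 1.29 times the control level.

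**Figure D3:**
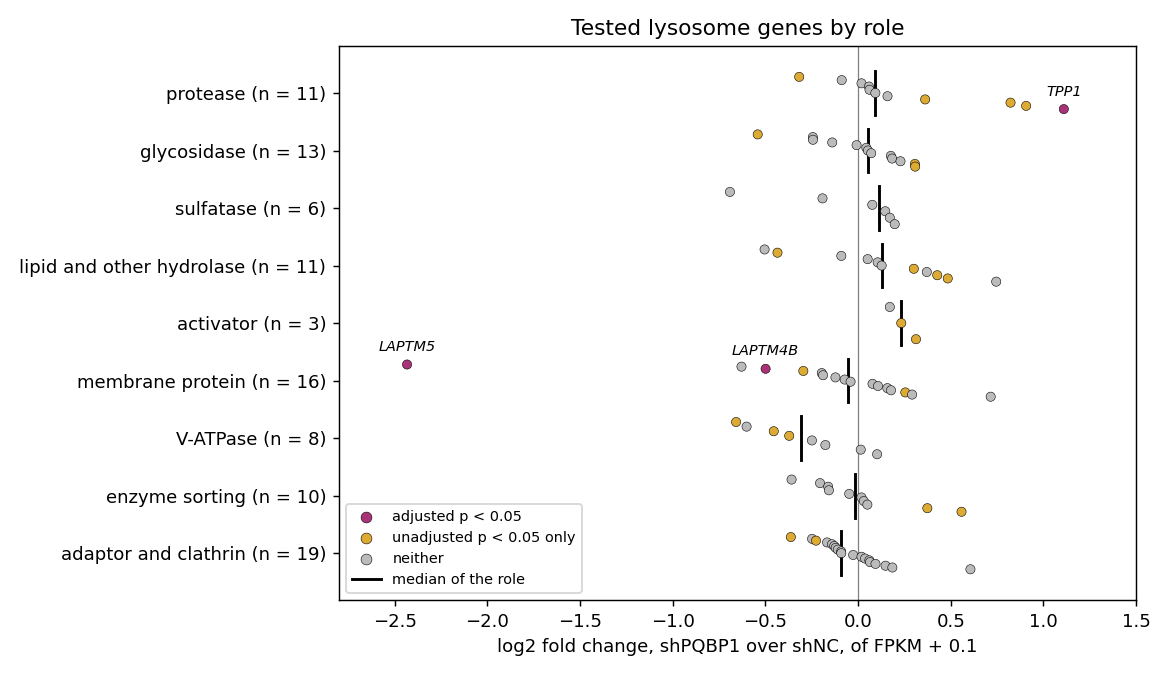
Log2FC of shPQBP1 over shNC (horizontal axis) of the 97 tested lysosome genes, grouped by role (rows), with the median of each role as a black bar. Purple points have an adjusted p under 0.05, yellow points an unadjusted p under 0.05 only. The V-ATPase median is at -0.31, and the medians of the other roles lie between -0.09 and 0.23.

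The V-ATPase consists of a membrane domain (V0), which conducts protons, and a peripheral domain (V1), which hydrolyses ATP. The list held 10 genes, 8 of V0 with ATP6V1H of V1 and the accessory gene ATP6AP1, and 8 were tested. None had an adjusted p under 0.05, 3 were lower and none higher at an unadjusted p under 0.05 (backgrounds 11.7% and 11.9%), and their median log2FC was -0.31, beside 0.02 over all genes. In 5 of the 8 the shPQBP1 samples were all below the shNC samples (background 17.1%), and in 1 they were all above (17.3%). The median lay between -0.36 and -0.24 in the 6 fits without 1 sample. ATP6V0B, a proteolipid subunit of V0, had 18.19, 13.77 and 14.02 in the shNC and 8.36, 10.77 and 9.82 in the shPQBP1 samples (log2FC -0.66, SE 0.15, limma adjusted p = 0.073). ATP6V0C, the main proteolipid of the proton-conducting ring, was the most abundant, with 59.31, 48.98 and 49.32 against 44.12, 21.17 and 43.79. The low value in shPQBP1 replicate 2 widened its interval, and the log2FC of -0.60 (95% interval -1.32 to 0.12) was -0.25 without that sample. The genes of the large V0 subunit a were not all on the same side of 0. TCIRG1 (subunit a3) had 4.65 to 5.11 and 3.48 to 3.92, ATP6V0A1 had 3.90 to 5.31 and 2.62 to 3.86, and ATP6V0A2 had 1.85 to 2.02 and 2.03 to 2.17. The summed FPKM of the 10 genes was 103.33 to 126.43 in the shNC samples and 70.95 to 92.16 in the shPQBP1 samples. The transcripts of the 8 tested genes had a median GC content of 57.7%, above the 47.5% of all genes tested. With GC content and length corrected for in each sample, their median was -0.16 and ATP6V0B had a log2FC of -0.48 (limma adjusted p = 0.0253).

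The other V1 subunits were listed apart from the pathway genes. Of 12 genes, 11 had a row and 7 were tested, none had an unadjusted p under 0.05, and the median was -0.09. Their summed FPKM was 211.21 to 226.83 in the shNC and 209.72 to 221.54 in the shPQBP1 samples, which overlapped. The difference between the V0 and V1 genes was not tested.

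Of the membrane proteins, 18 were in the list and 16 tested. Beside LAPTM5 and LAPTM4B none had an adjusted p under 0.05, and the median of the 16 was -0.06. That median lay between -0.11 (without shNC replicate 2) and -0.01 (without shNC replicate 1) with 1 sample left out. It was above 0 with GC content and length corrected for (0.0079) and over the 9 genes with a mean of at least 10 FPKM (0.16). CD63, a tetraspanin of late endosomes, had 113.01 to 157.66 in the shNC and 130.05 to 151.19 in the shPQBP1 samples (log2FC 0.11, 95% interval -0.22 to 0.44). LAMP1 and LAMP2, the most abundant structural glycoproteins of the lysosomal membrane, were read as general markers of the compartment after their values were seen. LAMP1 had 40.73 to 43.96 and 39.18 to 40.67, a log2FC of -0.07 with a 95% interval from -0.23 to 0.09, so a change of the LAPTM5 size lies outside it. LAMP2 had 23.07 to 28.24 and 28.18 to 30.27 (log2FC 0.16, 95% interval -0.08 to 0.39).

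Enzyme sorting was represented by 10 genes, all tested, of which none had an adjusted p under 0.05 and 2 were higher at an unadjusted p under 0.05 (background 11.9%). GNPTAB, the catalytic precursor of the phosphotransferase that makes the mannose 6-phosphate tag, had 2.53, 3.93 and 3.51 in the shNC and 5.07, 4.55 and 4.98 in the shPQBP1 samples (log2FC 0.56, SE 0.17, limma adjusted p = 0.131). NAGPA, which uncovers the tag, had 0.83 to 1.04 and 1.22 to 1.29 (0.37, adjusted p = 0.201). The receptors of the tag are IGF2R and M6PR. IGF2R had 20.47 to 20.62 and 19.57 to 20.38 (log2FC -0.05, 95% interval -0.21 to 0.11). M6PR had 31.36 to 38.06 in the shNC samples and 27.96, 61.27 and 26.51 in the shPQBP1 samples, so that shPQBP1 replicate 2 was the highest and the other two the lowest of the 6. Its log2FC was 0.05, and it was -0.34 (adjusted p = 0.233) without that sample. M6PR shares 1107 exon bases with PHC1 on the opposite strand, which had 4.84 to 8.72 FPKM.

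The adaptor complexes AP-1, AP-3 and AP-4 and clathrin choose cargo and coat the vesicles that travel to endosomes and lysosomes. Of 23 genes, 19 were tested, none had an adjusted p under 0.05, 2 were lower at an unadjusted p under 0.05 (background 11.7%), and the median was -0.09. In the 6 fits without 1 sample the median lay nearer to 0, between -0.06 and -0.03 (-0.03 without shPQBP1 replicate 3). Both of these, AP1B1 and AP1S2, belong to AP-1. AP1B1 had 11.85, 10.46 and 11.47 in the shNC and 9.13, 10.26 and 9.43 in the shPQBP1 samples (log2FC -0.23, limma adjusted p = 0.195). CLTA, a clathrin light chain, had 83.02 to 102.62 and 77.76 to 80.53 (-0.17, 95% interval -0.41 to 0.07), and CLTC, the heavy chain, had 39.01 to 51.57 and 41.50 to 44.94 (-0.09, 95% interval -0.38 to 0.20). For AP-3, 6 tested genes had a median of 0.0020 and log2FC values from -0.12 to 0.19.

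The 22 genes below the filter were also read. Among them were 6 proteases, CTSE, CTSF, CTSH, CTSV, CTSW and NAPSA, 4 glycosidases and 4 adaptor or clathrin genes. The groups did not overlap in 8 of the 22, 6 of them lower and 2 higher, beside 4.39% lower and 5.32% higher among all 21266 genes below the filter, which include genes at 0 in every sample. LAMP3, a LAMP protein of dendritic cells that is also induced in some tumours, had 1.10, 0.92 and 0.79 in the shNC and 0.35, 0.55 and 0.66 in the shPQBP1 samples. ACP5, the tartrate-resistant phosphatase of osteoclasts, had 0.04 to 0.08 and 0.13 to 0.18. These were picked after their values were seen. With all genes above 0 tested, the only lysosome gene at an adjusted p under 0.05 was LAPTM5, among 118 tested (0.847%, background 0.619%). At an unadjusted p under 0.05, 18 were higher and 13 lower in that fit (limma), beside 7.0% and 6.53% of its 30717 genes, most of which had a mean below 1 FPKM.

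**Figure D4:**
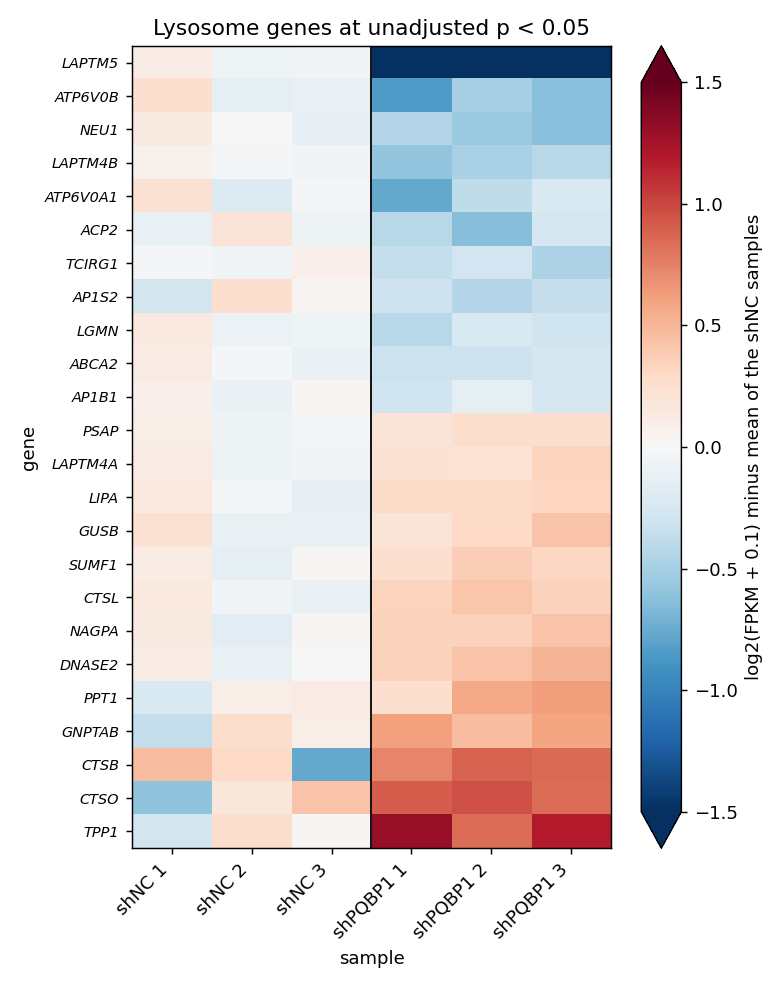
Log2(FPKM + 0.1) minus the mean of the shNC samples (colour, limited to 1.5 either way) for 24 of the 25 lysosome genes at an unadjusted p under 0.05 (rows, ordered by log2FC) in the 6 samples (columns). CTSB in shNC replicate 3 and CTSO in shNC replicate 1 lie well below the other shNC samples, while the LAPTM5 row is at the lower colour limit in all shPQBP1 samples.

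Genes that control or position lysosomes but lie outside the KEGG list were taken from lists of MiT factors, the mTORC1 and Rag pathway, V1 subunits and the fusion and positioning machinery, 51 genes of which 42 were tested. RRAGD fell and none rose at an adjusted p under 0.05, beside 2.91% of all genes, and the median was -0.03. RRAGD encodes a Rag GTPase that brings mTORC1 to the lysosome, and it is a known target of MiT factors. It had 4.03, 3.91 and 3.85 in the shNC and 2.23, 2.74 and 2.52 in the shPQBP1 samples, with no overlap. It fell from 3.93 ± 0.0917 to 2.50 ± 0.256 FPKM (mean ± SD, n = 3 per group), with a log2FC of -0.64 (SE 0.10, limma adjusted p = 0.0345). In the 6 fits without 1 sample the adjusted p of RRAGD lay between 0.0538 and 0.149. FLCN, which activates RRAGC and RRAGD, had 4.39 to 4.65 and 3.41 to 3.93 (log2FC -0.32, limma adjusted p = 0.115). RPTOR, the substrate-binding subunit of mTORC1, had 4.24 to 4.81 and 3.38 to 3.74 (-0.33, adjusted p = 0.123). With GC content and length corrected for, FLCN was at -0.20 and RPTOR at -0.18. LAMTOR3, a Ragulator subunit that anchors the Rag GTPases, lay in the other direction. It had 2.73, 3.80 and 3.19 in the shNC and 6.88, 3.82 and 6.31 in the shPQBP1 samples (log2FC 0.76, limma adjusted p = 0.142). LAMTOR1, another subunit, had 28.24, 22.99 and 9.23 against 8.24, 10.26 and 8.50 (-1.01, limma adjusted p = 0.205), and its groups overlapped. LAMTOR2, LAMTOR4 and LAMTOR5 overlapped too (0.07, 0.03 and -0.23). These subunits were added after their values were seen. Of the 17 mTORC1 and Rag genes, all tested, 4 were lower and 1 higher at an unadjusted p under 0.05 (backgrounds 11.7% and 11.9%). MTOR itself overlapped, with 6.48 to 7.03 and 6.05 to 6.53, a gene added after its values were seen. None of the 17 tested fusion and positioning genes had an unadjusted p under 0.05.

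The log2FC of the transcriptome followed transcript GC content, with Spearman's rho = -0.459 across all 11385 genes with a GENCODE transcript and -0.262 across the 97 lysosome genes. These are descriptions across genes of the same 6 libraries, and genes are not independent replicates. With the trends on GC content and on length taken out of each sample, 16 of the 97 lysosome genes had an adjusted p under 0.05 (16.5%), 9 higher and 7 lower, against 8.24% of all genes in that fit. Among the 9 higher genes were TPP1 (1.16), NAGPA (0.60), DNASE2 (0.58), GUSB (0.46), CTSL (0.42), SUMF1 (0.40), MAN2B1 (0.37) and PSAP (0.35), with log2FC values in parentheses. The 7 lower genes were LAPTM5 (-2.35), AP1S2 (-0.59), ATP6V0B (-0.48), LAPTM4B (-0.48), NEU1 (-0.47), CLTC (-0.28) and AP3M1 (-0.26). LAPTM5 and TPP1 thus had nearly the same size with and without the correction.

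**Figure D5:**
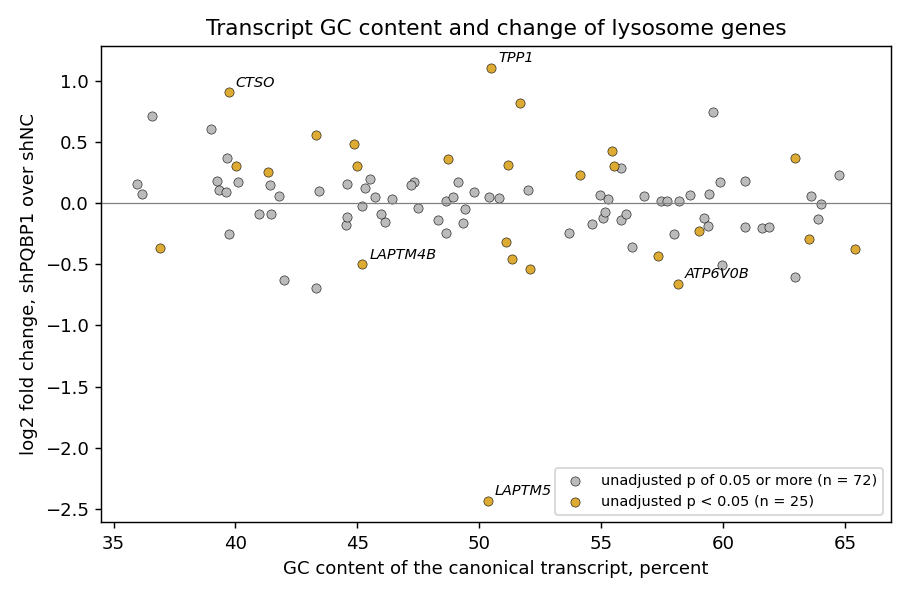
GC content of the canonical GENCODE transcript (horizontal axis, percent) against the log2FC of shPQBP1 over shNC (vertical axis) for the 97 tested lysosome genes, with the 25 at an unadjusted p under 0.05 in yellow. TPP1 and LAPTM5 have nearly the same GC content (50.5% and 50.3%) and lie at the upper and lower ends.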

How the data were processed

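Short-read RNA-seq of HEY cells was analysed, 3 shNC and 3 shPQBP1 samples grouped by their titles. Per the study's methods and the submitters' processing notes, the authors used HISAT2 2.2.0 for mapping to hg38, SAMtools 1.9 for sorting and StringTie 1.3.0 for transcripts. The annotation release is not given in the sources used here. The authors deposited FPKM per gene and sample, rounded to 2 decimals. The table also holds fold changes, p-values and calls of the authors' edgeR comparison, which were not used.

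Low FPKM values of 1418 to 1572 single-transcript genes per sample showed no step of whole reads (strength at most 0.181 on a scale to 1), so depth and counting error are unknown.

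log2(FPKM + 0.1) of genes with a mean of at least 1 FPKM was fitted in R 4.3.3 with limma 3.58.1 (lmFit, then eBayes with trend). Tests were two-sided, p-values were adjusted after Benjamini and Hochberg over all genes, and calls were made at 0.05. Alternatives were other scalings, filters and pseudocounts, no trend, a replicate block, each sample left out, and removal of natural-spline trends (5 degrees of freedom each) on GC content and log length of the canonical GENCODE (release 44) transcript. The fit was tested on simulated data. Genes named by rule were PQBP1, the LAPTM family, members at an adjusted p under 0.05, the 2 most abundant members of each role and the 1 with the smallest p, TFEB, TFE3, MITF and the 3 control genes with the smallest p. Some genes that this rule names are not reported here. Any other gene named was chosen after its values were seen. The members, roles and lists were chosen with earlier results of these data known. Promoters were read from RefSeq (GRCh38.p14), and 89 of 119 members matched by symbol. The same-numbered samples were not treated as pairs.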

Additional observations from a re-analysis of the deposited data

How the results depend on the processing

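The samples were few, and the limma-adjusted calls depended on single libraries. Leaving out 1 sample gave between 30 and 464 called genes in all, between 1 and 6 called lysosome genes, between 15 and 29 lysosome genes at an unadjusted p under 0.05 (15 without shPQBP1 replicate 3), and between 0 and 1 called control genes outside the list (LAMTOR1, without shNC replicate 3). The 6 called without shNC replicate 1, beside 464 genes in all, were LAPTM5, LAPTM4B, CTSL, DNASE2, LIPA and PSAP. Leaving out any of the other samples left LAPTM5 as the 1 called lysosome gene. Quantile normalization called 6 of 97 lysosome genes, 4 higher and 2 lower, beside 417 of all 11413 genes, 212 higher and 205 lower. With every gene above 0 tested, 190 genes, 1 lysosome gene and 0 control genes were called. With a mean of at least 10 FPKM the counts were 211, 1 and 0, with 11 lysosome genes at an unadjusted p under 0.05. LAPTM5, TPP1, RRAGD and PQBP1 are below that filter and were not tested there. Shares of all genes at an unadjusted p were not taken for that filter or for the fits without 1 sample. The GC content and length correction called 938 genes, 16 lysosome genes and 4 control genes. With the replicate number as a block, 0 genes were called in all (1840 at an unadjusted p under 0.05), hence 0 lysosome genes and 0 control genes, with 16 lysosome genes at an unadjusted p under 0.05. The block left LAPTM5 at -2.43 (adjusted p = 0.0863) and PQBP1 at -2.04 (adjusted p = 0.0686). The same-numbered samples did not deviate together (r = -0.186, -0.138 and -0.0114), so the block stands for a shared number only. Signs turned for M6PR (-0.34 to 0.26 without 1 sample, below 0 without shNC replicate 3, at -0.02, and without shPQBP1 replicate 2), for CTSZ (-0.02 to 0.07 without 1 sample) and for TFE3 (-0.12 to 0.03 without 1 sample and 0.12 after the GC content and length correction). None of these had an adjusted p under 0.05. The median log2 fold change of the lysosome genes moved by less than the spread between replicates (0.0655) in every alternative, but its sign was not stable. It was 0.0381 in the main fit and -0.019 under quantile normalization. It was also below 0 without shNC replicate 2 (-0.0151), shNC replicate 3 (-0.0016) or shPQBP1 replicate 2 (-0.0169). Depth is unknown, so no counting error can be given for low values.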
